A study of Bos taurus with 14 samples.

Results

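Cholesterol synthesis genes and the genes of sterol control around SREBP2 were followed in the liver of 14 Holstein bull calves, 1 poly(A)-selected RNA library per calf. The list holds 29 genes by symbol, of which 28 were matched among the 17469 genes of the table, and STARD4 is not analysed here. Levels are in TPM, which corrects for the length of a transcript and sets every library to one total, added up over all transcripts that share a Gene ID, and all 28 were among the 11905 genes that reached 1 TPM in at least 7 libraries. The 28 genes divide by role into 19 enzymes of synthesis, 4 genes of SREBP2 control, MYLIP and NPC1, and 3 efflux transporters. The 7 DCLI calves had 1 g of killed Lactobacillus ingluviei cells, strain CR37, added to the diet daily, and the 7 CON calves had no such addition. Libraries titled as treated were taken as DCLI, the only supplemented group that the design describes. Both groups drank milk replacer at 1.75% of body weight, could eat starter after day 33, had the replacer cut to 50% on day 82, were off milk by day 89 and were slaughtered on day 90. The design sets the supplemented against the unsupplemented calves, here for sterol genes of the liver just after weaning. A piece of whole liver holds several cell types, and in such bulk samples fewer cells of a type and less RNA per cell cannot be told apart.

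Cells build cholesterol from acetyl-CoA by way of mevalonate, the isoprenoid farnesyl diphosphate, squalene and a series of sterols. SREBP2, the protein of the gene SREBF2, is a membrane-bound transcription factor of the endoplasmic reticulum that rides with its escort SCAP. When membrane sterol is scarce it moves to the Golgi, is cut by proteases and switches on nearly every gene of the pathway; when sterol is plentiful, INSIG proteins hold it back. Surplus cholesterol leaves liver cells through ABC transporters, whose genes are known targets of the sterol-sensing LXR receptors. The gene roles named here are those established in human and mouse.

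The libraries summed to between 999997.1 and 1000000.3 TPM by construction, so read depth is unknown and no counting interval can be given. All 8 hepatocyte markers were present, with a summed level of 42960 to 129700 TPM in DCLI and 71900 to 123000 TPM in CON. DCLI calf 6 had the lowest hepatocyte sum and the highest sum of the neutrophil markers (5 of 6 in the table), 253 TPM, where the other DCLI calves had 24.4 to 106.5 TPM and CON calves 38.7 to 201 TPM. The 9 T and NK cell markers summed to 40.7 to 155 TPM in DCLI and 68.9 to 651 TPM in CON, where CON calf 2 was highest and the next CON calf had 208 TPM. The Kupffer cell markers (9 of 10 in the table) summed to 1468 to 4464 TPM in DCLI and 1671 to 7125 TPM in CON, with CON calf 2 again the highest. No marker of these 4 lists was at 0 in every library. Results that rest on these 2 calves are given with and without them.

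On the TPM scale, which is per transcript length, the genes spanned a wide range of levels. SC5D, a desaturase of a late sterol step, had the highest mean level, with 301.5 TPM in DCLI (SD 82.5) and 291 TPM in CON (SD 58.8, n = 7 each). MSMO1, TM7SF2, EBP and INSIG1 followed in the order of the mean over all calves, and neighbours in that order overlapped in their range over calves. ABCG5, a sterol exporter, had the lowest mean level, with 6.12 TPM in DCLI (SD 2.40) and 3.59 TPM in CON (SD 0.94). MYLIP, LBR, ABCG8 and NPC1 came next above it.

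**Figure D1:**
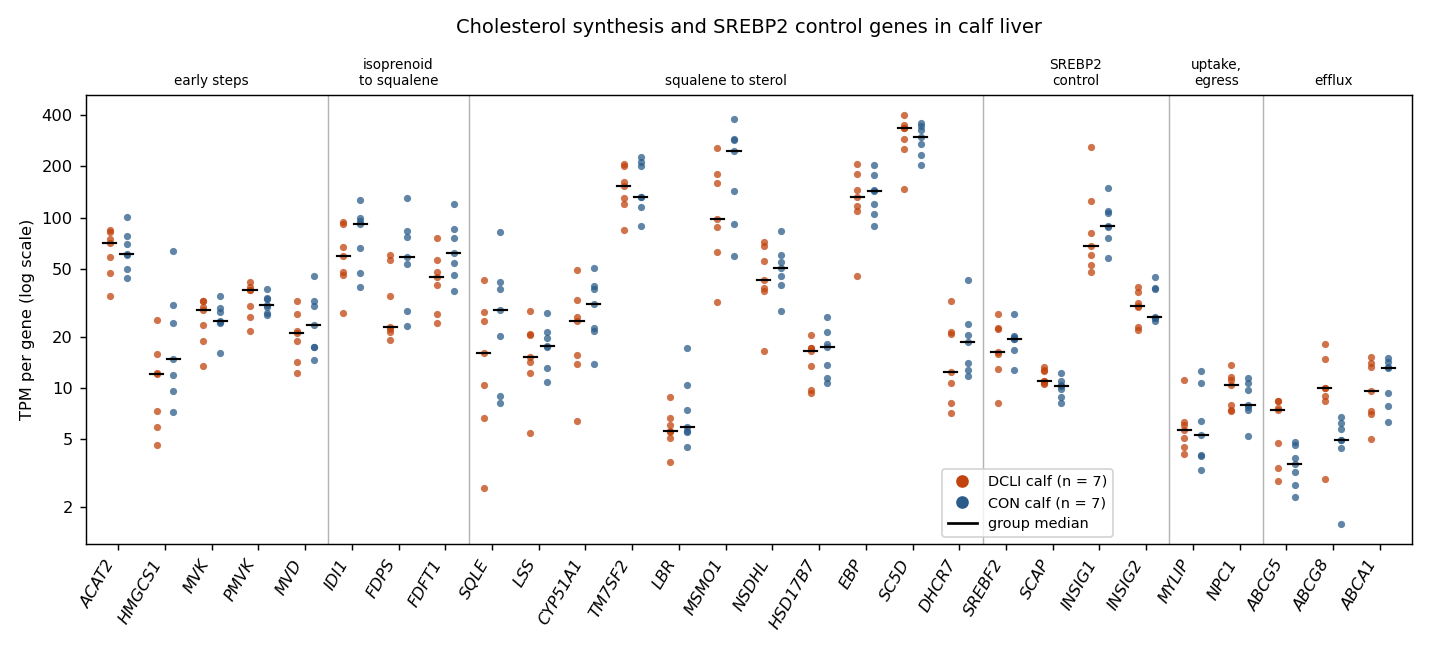
Level of each of the 28 genes in every calf, in TPM per gene on a log scale; each point is 1 calf, DCLI calves left of CON calves, bars are group medians and vertical lines divide the roles. Points of the groups overlap for every gene shown, and 6 of 7 DCLI calves stand above all CON calves for ABCG8. Overlap was not counted over all genes tested.

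No gene of the list passed the adjusted threshold, and most synthesis genes had a lower level in DCLI calves while the sterol exporters ABCG5 and ABCG8 had a higher one. By limma on log2(TPM + 1), 0 of the 28 genes had an adjusted p under 0.05, where the count over all 11905 genes was also 0 (0.0%). Without CON calf 7 the count over all genes was 12, none of them on this list. A rank-sum test over the exact distribution called 0 genes after adjustment and 821 before it. At an unadjusted p under 0.05, ABCG5 and ABCG8 were higher in DCLI, 2 of 28 where 678 genes, 5.7% of all, were, and FDPS and FDFT1 were lower, 2 of 28 where 380 genes, 3.19% of all, were. The log2 fold change, DCLI minus CON, was below 0 for 22 of the 28 genes, against 51.2% of all genes tested, with a median of -0.16 against -0.0052 over all genes. Among the 19 synthesis genes it was below 0 for 17, with a median of -0.25. Adjusted p-values of the 28 genes ran from 0.439 to 0.987 by limma. The values of the groups overlapped for all 28 genes, and the share of all genes tested with such overlap was not counted.

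The count of lower genes leaned on DCLI calf 6. Without that calf 11 of the 19 synthesis genes were lower, 13 of the 28 genes were higher instead of 6, and the median over the 28 genes was -0.043. Without CON calf 6, the calf with the highest level of most synthesis genes, the median was -0.093. With DCLI calf 6 and CON calf 2 both left out, 12 of the 19 synthesis genes were lower and 12 of the 28 genes were higher.

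**Figure D2:**
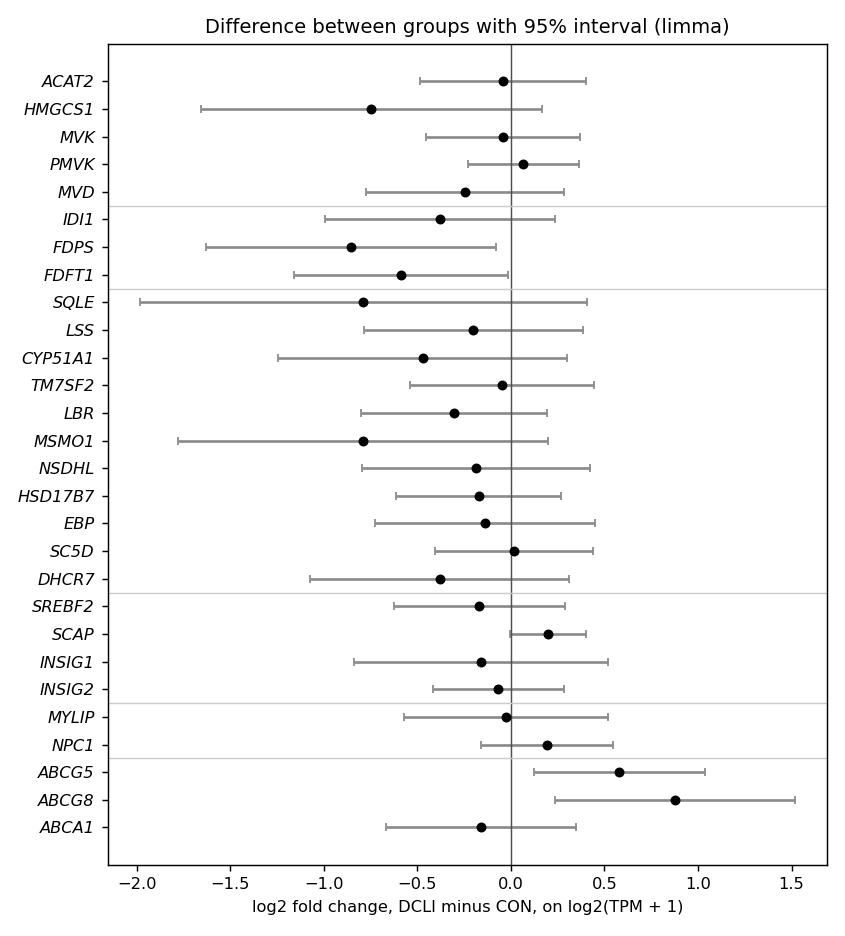
Difference between the groups for each gene, DCLI minus CON on log2(TPM + 1), as a point with its 95% interval from limma (n = 7 calves per group); horizontal lines divide the roles. Intervals of FDPS and FDFT1 lie below 0, those of ABCG5 and ABCG8 lie above 0, and all others span 0.

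The first enzymes lead from acetyl-CoA to the activated isoprene unit. HMGCS1 (Gene ID 407767), the cytosolic HMG-CoA synthase that joins acetyl-CoA to acetoacetyl-CoA, had a lowest, median and highest level of 4.60, 12.1 and 25.2 TPM in DCLI, against 7.21, 14.8 and 63.3 TPM in CON. The highest CON value, that of calf 6, stood apart from the other CON calves, and 2 DCLI calves lay below all CON calves. The log2 fold change was -0.75 ± 0.43 (SE; limma unadjusted p 0.102, adjusted p 0.617), and it was -0.45 without CON calf 6. ACAT2, the thiolase before it, averaged 64.7 TPM in DCLI (SD 18.6) and 66.2 TPM in CON (SD 18.9, n = 7 each). MVK and PMVK phosphorylate mevalonate in turn. MVK had a fold change of -0.043 with a 95% interval of -0.46 to 0.37, and PMVK, the phosphomevalonate kinase, one of 0.067 with an interval of -0.23 to 0.37. MVD, the decarboxylase that closes this stretch, averaged 21.1 TPM in DCLI (SD 6.99) and 25.9 TPM in CON (SD 10.98), a log2 fold change of -0.25 ± 0.25 (SE), which was -0.0995 without CON calf 6. The sign of the ACAT2 and MVK differences turned when single calves were left out, DCLI calf 6 among them (0.093 for each without it).

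The next enzymes assemble isoprene units into farnesyl diphosphate and squalene, and 2 of the 3 had the lowest unadjusted p among the synthesis genes. FDPS (Gene ID 281156), farnesyl diphosphate synthase, had a lowest, median and highest level of 19.2, 22.8 and 60.7 TPM in DCLI, against 23.2, 58.8 and 129.6 TPM in CON. Of the 7 DCLI calves, 4 lay below all CON calves and 6 below the CON median. The log2 fold change of -0.85 ± 0.36 (SE) had an unadjusted p of 0.0326 and an adjusted p of 0.514 by limma. FDFT1 (Gene ID 281767), squalene synthase, had a lowest, median and highest level of 24.2, 45.0 and 75.7 TPM in DCLI, against 36.9, 61.8 and 119.95 TPM in CON. Here 2 DCLI calves lay below all CON calves and 6 below the CON median. The log2 fold change was -0.59 ± 0.27 (SE), with an unadjusted p of 0.0452 and an adjusted p of 0.553 by limma. IDI1, the isopentenyl diphosphate isomerase upstream of both, averaged 62.1 TPM in DCLI (SD 24.5) and 80.9 TPM in CON (SD 31.2, n = 7 each), a fold change of -0.38 ± 0.29 (SE). With 1 calf left out, the fold change ran from -1.06 to -0.66 for FDPS, from -0.72 to -0.44 for FDFT1 and from -0.53 to -0.20 for IDI1.

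From squalene onward the pathway forms the sterol ring and trims it to cholesterol. SQLE, the squalene epoxidase that is a known control point of the pathway, varied most between calves of any of the 28 genes, at a within-group SD of 1.199 on the log2 scale, above 99.3% of all genes tested. Its lowest, median and highest levels were 2.60, 16.1 and 42.9 TPM in DCLI, against 8.14, 28.7 and 82.6 TPM in CON. DCLI calf 6 held the lowest value and CON calf 6 the highest. The log2 fold change of -0.79 had a 95% interval of -1.98 to 0.41. MSMO1, the sterol methyl oxidase that removes methyl groups from the ring, had a lowest, median and highest level of 31.99, 98.6 and 255.5 TPM in DCLI, against 59.5, 247 and 378 TPM in CON. In 6 of 7 DCLI calves it lay below the CON median, and its fold change was -0.79 ± 0.47 (SE; limma unadjusted p 0.110, adjusted p 0.626). Without DCLI calf 6 the fold changes of SQLE and MSMO1 were -0.44 and -0.51.

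The other 9 genes of this stretch, like SQLE and MSMO1, differed between the groups by less than their within-group SD on the log2 scale. CYP51A1, the sterol demethylase, averaged 24.0 TPM in DCLI (SD 14.1) and 31.1 TPM in CON (SD 12.7), and LSS, which closes the sterol ring, averaged 16.6 TPM in DCLI (SD 7.30) and 18.2 TPM in CON (SD 5.45, n = 7 each). DHCR7, the reductase of the last step of one branch, averaged 16.1 TPM in DCLI (SD 9.09) and 20.6 TPM in CON (SD 10.9), where CON calf 6 stood apart at 43.1 TPM. TM7SF2 and LBR encode sterol reductases that can do the same step as each other, not that of DHCR7. LBR is also a lamin-binding protein of the nuclear envelope. TM7SF2 averaged 151 TPM in DCLI (SD 43.7) and 158 TPM in CON (SD 53.8), and LBR averaged 5.91 TPM in DCLI (SD 1.59) and 8.07 TPM in CON (SD 4.47). The highest LBR value, 17.2 TPM, was that of CON calf 2, the calf with the highest T and NK cell marker sum, and the fold change of LBR was -0.30 with that calf and -0.12 without it. With CON calf 2 included, all 9 T and NK cell markers were lower in DCLI, at a median fold change of -0.56 with 0 past the adjusted threshold. The part of those cells in LBR was not tested. NSDHL, HSD17B7 and EBP, which remove, reduce and rearrange groups on the ring, had fold changes of -0.19, -0.17 and -0.14, and SC5D had one of 0.016. Without CON calf 6 the fold changes of HSD17B7 and DHCR7 were -0.061 and -0.19, where all calves gave -0.17 and -0.38, and that of CYP51A1 was -0.47 with all calves and -0.22 without DCLI calf 6. Without DCLI calf 6 the fold changes of LSS, TM7SF2, NSDHL and EBP were above 0, at 0.0195, 0.081, 0.038 and 0.097, and that of SC5D was -0.067 with quantile normalization.

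With all calves, 0 of the 4 genes of SREBP2 control had an unadjusted p under 0.05 by limma. SREBF2 (Gene ID 507102) had a lowest, median and highest level of 8.19, 16.2 and 27.0 TPM in DCLI, against 12.8, 19.5 and 27.3 TPM in CON, a log2 fold change of -0.17 with a 95% interval of -0.63 to 0.29. DCLI calf 6 had the lowest value and the fold change was -0.0093 without it. SCAP, the escort of SREBP2, had 10.6, 10.99 and 13.3 TPM in DCLI, against 8.18, 10.3 and 12.3 TPM in CON, in the same order. All 7 DCLI calves lay above the CON median and 3 above all CON calves. The fold change of 0.20 ± 0.10 (SE) had an unadjusted p of 0.0570 and an adjusted p of 0.574 by limma. SCAP also varied least of the 28 genes, with a within-group SD of 0.16 on the log2 scale, above only 7.4% of all genes tested.

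INSIG1 and INSIG2 encode the proteins that keep SCAP and SREBP2 in the endoplasmic reticulum, and INSIG1 is itself a known SREBP2 target. INSIG1 had a lowest, median and highest level of 47.9, 67.95 and 259.9 TPM in DCLI, against 57.9, 89.8 and 149 TPM in CON. The highest value, in DCLI calf 1, stood apart from all other DCLI calves, of which 5 lay below the CON median. DCLI calf 1 also had the highest sum of the 7 markers of red blood cells, 572 TPM. The other DCLI calves had 73.5 to 148.8 TPM of them and the CON calves 43.25 to 116 TPM. Any link of that sum to INSIG1 was not tested. The fold change was -0.16 with all calves and -0.43 without DCLI calf 1. INSIG2 averaged 30.3 TPM in DCLI (SD 6.36) and 32.01 TPM in CON (SD 8.35, n = 7 each), a fold change of -0.067, which was 0.0197 without CON calf 1.

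MYLIP, a ubiquitin ligase that sends lipoprotein receptors to degradation, and NPC1, which carries cholesterol out of lysosomes, act on incoming sterol. MYLIP averaged 6.11 TPM in DCLI (SD 2.33) and 6.61 TPM in CON (SD 3.60), with DCLI calf 2 apart from its group at 11.1 TPM and CON calf 2 highest at 12.6 TPM. Its fold change was -0.025 with all calves and 0.13 without CON calf 2. NPC1 averaged 9.91 TPM in DCLI (SD 2.41) and 8.57 TPM in CON (SD 2.12, n = 7 each), a fold change of 0.19 with a 95% interval of -0.16 to 0.54.

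ABCG5 and ABCG8 together form a transporter that secretes sterols into bile, and both were higher in DCLI calves at the unadjusted level. ABCG8 (Gene ID 508829) had a lowest, median and highest level of 2.93, 9.92 and 18.04 TPM in DCLI, against 1.59, 4.97 and 6.74 TPM in CON. Of the 7 DCLI calves, 6 lay above all CON calves, and DCLI calf 6 lay below the CON median. The log2 fold change of 0.88 ± 0.30 (SE) had an unadjusted p of 0.0104 and an adjusted p of 0.439 by limma. ABCG5 (Gene ID 515536) had a lowest, median and highest level of 2.85, 7.40 and 8.41 TPM in DCLI, against 2.30, 3.59 and 4.82 TPM in CON. Here 4 DCLI calves lay above all CON calves and 5 above the CON median. The fold change was 0.58 ± 0.22 (SE), with an unadjusted p of 0.0162 and an adjusted p of 0.458 by limma. The fold change ran from 0.69 to 1.11 for ABCG8 and from 0.50 to 0.71 for ABCG5 with 1 calf left out. In the RefSeq annotation of assembly ARS-UCD2.0 these genes are neighbours with 0 genes between them. ABCA1, the exporter that loads cholesterol onto nascent high-density lipoprotein, averaged 10.2 TPM in DCLI (SD 3.96) and 11.3 TPM in CON (SD 3.42), a fold change of -0.16 with a 95% interval of -0.67 to 0.35.

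**Figure D3:**
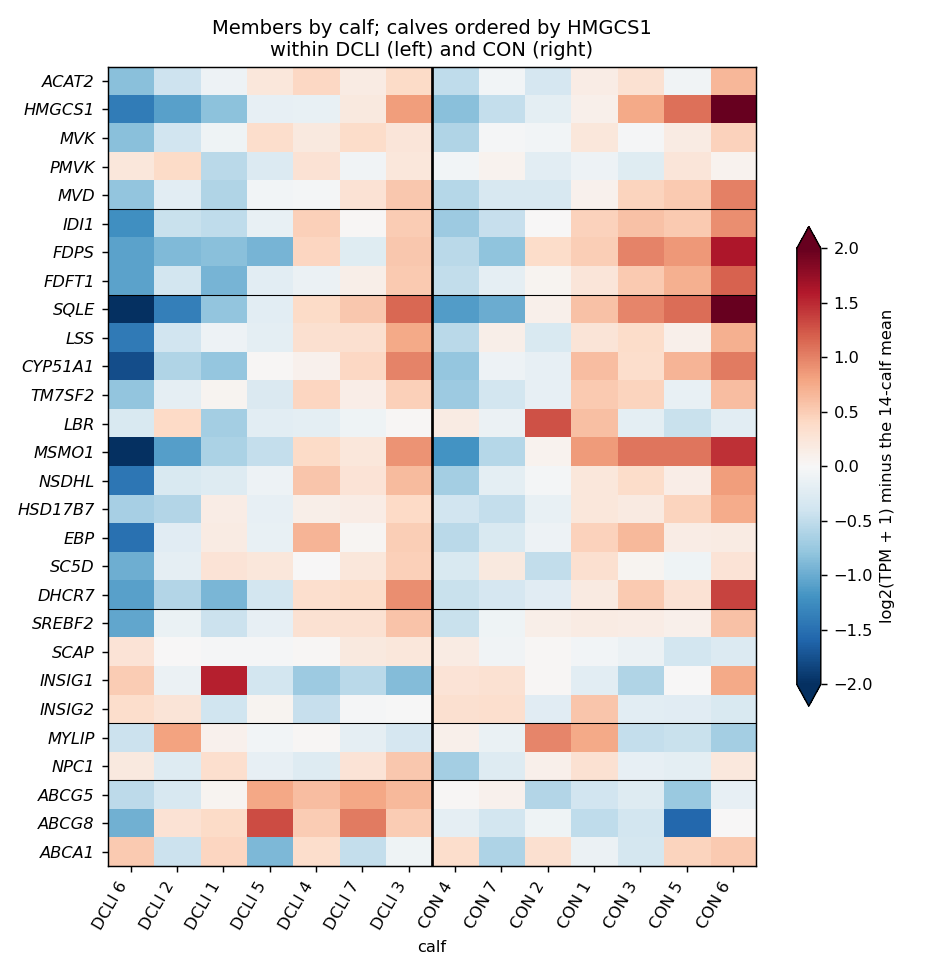
Level of each gene in each calf as log2(TPM + 1) minus the mean over 14 calves (blue below, red above, the color scale ends at -2 and 2); columns are calves, DCLI left and CON right, ordered by HMGCS1 within each group. Most synthesis rows shade together across calves, with DCLI calf 6 the lowest column and CON calf 6 the highest, while PMVK, LBR and the transporters follow other patterns.

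The synthesis genes varied from calf to calf mostly as a block. DCLI calf 6 had the lowest level of the 14 calves in 17 of the 19 synthesis genes, at a mean deviation of -1.13 on the log2 scale, and CON calf 6 had the highest level in 14 of 19, at a mean deviation of 0.90. DCLI calf 3 was above the 14-calf median in 19 of 19 genes, while DCLI calf 2 was above it in 2 and CON calf 4 in 1 of 19. High and low calves were thus found in both groups. DCLI calf 6 is also the calf with the lowest hepatocyte marker sum. CON calf 5 had the next lowest such sum, 71900 TPM, and was above the 14-calf median in 14 of 19 synthesis genes. The part of hepatocyte content in the levels of synthesis genes was not tested.

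Across the 14 calves, levels of HMGCS1 were set against each other gene on log2(TPM + 1), in a family of 31 relations with permutation p-values adjusted over the family. These correlations are over single libraries of fixed total, so a rise of abundant transcripts lowers all others in the same library. Of the 18 other synthesis genes, 15 were positively correlated with HMGCS1 at an adjusted p under 0.05. The closest was FDFT1 (r = 0.96, rho = 0.96, adjusted permutation p 5.17e-05, which comes from 1e-05, the smallest p the permutations can give). MVD (r = 0.96), SQLE (0.95), DHCR7 (0.93), MSMO1 (0.92) and IDI1 (0.90) followed. FDPS, CYP51A1 and HSD17B7 had r of 0.89, NSDHL 0.82, and LSS and ACAT2 0.79. The lowest of the 15 were MVK (0.75), TM7SF2 (0.70) and EBP (0.60, adjusted permutation p 0.0433), whose call was lost when any of 11 single calves was left out. Leaving out DCLI calf 6 gave an r of 0.89 for IDI1, 0.69 for MVK, 0.62 for TM7SF2 and 0.48 for EBP. Without CON calves 5 and 6, the calves farthest from the HMGCS1 median, r of the 15 genes ran from 0.75 for MVK to 0.96 for SQLE. Within the 7 DCLI calves it ran from 0.71 to 0.96, and within the 7 CON calves from 0.58 to 0.99.

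Among all 11904 other genes tested the median r with HMGCS1 was -0.08, and the central 95% lay between -0.63 and 0.58. An r of at least 0.8 was reached by 26 genes, 0.218% of all, and by 11 of the 27 other genes of the list, 10 of them among the 18 synthesis genes and the other SREBF2. The genes most like HMGCS1 outside the list, by r over the 14 calves, included TRH, the gene of thyrotropin-releasing hormone (r = 0.89, mean of 11.4 TPM in DCLI and 22.1 TPM in CON), and TTC36 (r = 0.89, 399.5 TPM in DCLI and 442 TPM in CON).

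**Figure D4:**
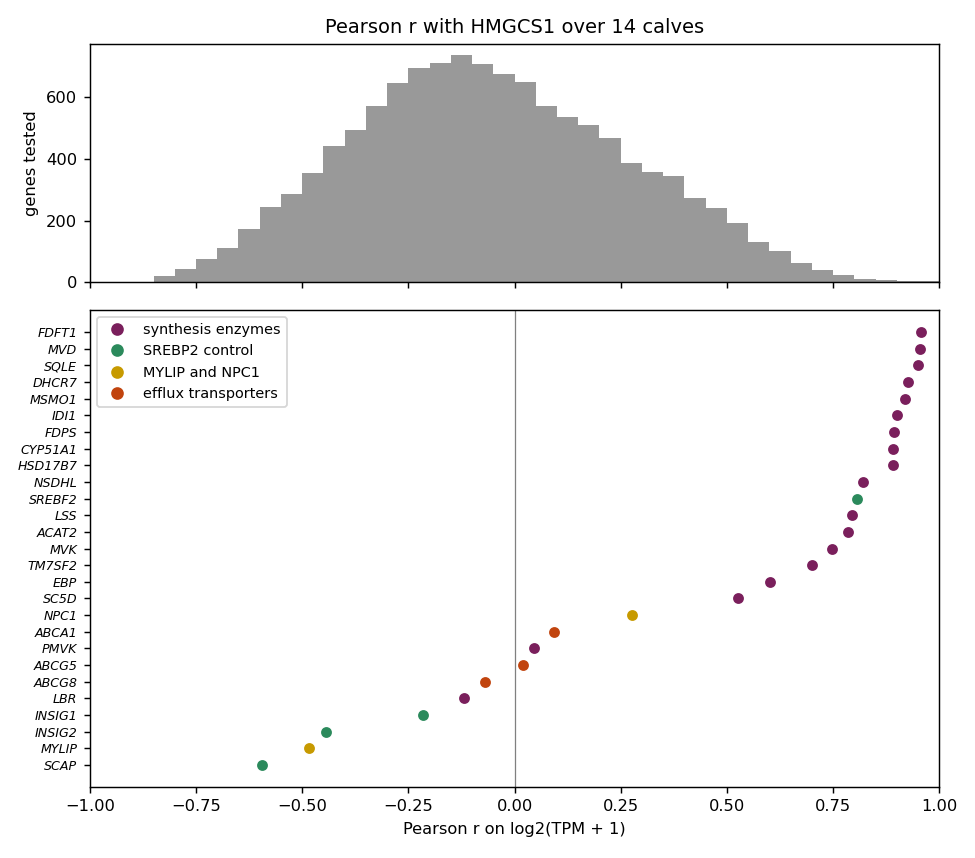
Pearson r with HMGCS1 over 14 calves on log2(TPM + 1), for all genes tested (upper panel, gene counts per bin) and for the 27 other genes of the list (lower panel, 1 point per gene, colored by role). Synthesis enzymes run from -0.12 for LBR to 0.96 for FDFT1, with 10 of 18 at 0.8 or more, a value that 0.218% of all genes reach.

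Correlation with HMGCS1 was not called for the other 3 synthesis genes, PMVK, LBR and SC5D. PMVK had an r of 0.045 with HMGCS1 (rho 0.00, adjusted permutation p 0.940) and LBR one of -0.12 (rho -0.15, adjusted permutation p 0.840). SC5D had an r of 0.53 (rho 0.54, adjusted permutation p 0.0882), which passed the threshold after median-ratio scaling (0.58, adjusted permutation p 0.0482) and with group means removed (0.59, adjusted permutation p 0.0397). With 1 calf left out the r of SC5D with HMGCS1 ran from 0.36 without DCLI calf 6 to 0.61 without DCLI calf 1. TM7SF2 and LBR, which can do the same reductase step, had an r of -0.005 with each other (rho 0.04, adjusted permutation p 0.988). Over all 378 pairs of the 28 genes, a family chosen after the data were seen, 147 pairs were positively and 0 negatively correlated at an adjusted permutation p under 0.05. Pairs of genes outside the list were not counted, so counts of called pairs have no background share beside them. The 171 pairs within synthesis had a median r of 0.81 and a range from -0.24 to 0.98, and 128 of them were called. IDI1 and MSMO1 were the closest pair (r = 0.98). PMVK and LBR were called with 0 of the 18 other synthesis genes, and SC5D was called with 10 of 18. Some of the SC5D values leaned on DCLI calf 6. Without it and CON calf 4, r with MSMO1 was 0.23 and with EBP 0.30, where all calves gave 0.62 and 0.75. Without DCLI calf 6 and CON calf 6, r of SC5D with ACAT2 was 0.71, where all calves gave 0.82. LBR was correlated with MYLIP (r = 0.79, rho 0.65, adjusted permutation p 0.00277). That r was 0.52 without CON calves 1 and 2, the calves farthest from the LBR median. Without DCLI calf 6 the count of called pairs was 127.

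SREBF2 itself varied together with the synthesis genes, with an r of 0.81 with HMGCS1 (rho 0.82, adjusted permutation p 0.00158). It was 0.85 without the 2 farthest calves, 0.88 within DCLI and 0.87 within CON. With HMGCS1 the r of SREBF2 was 0.79 without DCLI calf 6. Among all pairs, which have no background share, SREBF2 was called with 17 of the 19 synthesis genes, most closely NSDHL (r = 0.97, rho 0.96). Without CON calf 6 and DCLI calf 6, r with NSDHL was 0.92. Without CON calf 4 and DCLI calf 6, r of SREBF2 was 0.48 with EBP and 0.60 with MVK, where all calves gave 0.81 and 0.84. The other control genes did not share this pattern. SCAP had an r of -0.60 with HMGCS1 (rho -0.45, adjusted permutation p 0.0433), which rested on CON calves 5 and 6: it was -0.19 without them, 0.17 within DCLI and -0.85 within CON. Leaving out any of 9 single calves ended that call. INSIG1 had an r of -0.22 with HMGCS1 (rho -0.40, adjusted permutation p 0.585), and one of -0.70 without CON calves 5 and 6. With 1 calf left out it ran from -0.59 without CON calf 6 to -0.07 without DCLI calf 1. It was -0.68 within DCLI and 0.21 within CON, a difference that was not tested. INSIG2 had an r of -0.44 (rho -0.41, adjusted permutation p 0.164), MYLIP of -0.49 (rho -0.59, adjusted permutation p 0.123) and NPC1 of 0.28 (rho 0.35, adjusted permutation p 0.457). INSIG1 with INSIG2 and SREBF2 with SCAP had r of -0.06 and -0.36 (rho 0.04 and -0.16, adjusted permutation p 0.940 and 0.286).

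The exporters ABCG5 and ABCG8 were correlated with each other, and no correlation of an efflux gene with HMGCS1 was called over the 14 calves. ABCG5 and ABCG8 had an r of 0.85 (rho 0.83, adjusted permutation p 0.000248). It was 0.75 without DCLI calves 5 and 7, the farthest from the ABCG5 median, 0.85 within DCLI, 0.60 within CON and 0.77 with the group means removed. Among all pairs of the list, ABCA1 had an r of -0.46 with ABCG5 (rho -0.50, adjusted permutation p 0.198) and of -0.50 with ABCG8 (rho -0.41, adjusted permutation p 0.160), neither of them called. With HMGCS1, ABCG5 had an r of 0.02 (rho 0.09, adjusted permutation p 0.980), ABCG8 of -0.07 (rho 0.06, adjusted permutation p 0.933) and ABCA1 of 0.09 (rho 0.05, adjusted permutation p 0.9002). Within groups these values divided: ABCG5 with HMGCS1 had an r of 0.88 within DCLI and -0.33 within CON, and ABCG8 one of 0.65 within DCLI and -0.17 within CON. The difference between the groups in r was not tested.

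**Figure D5:**
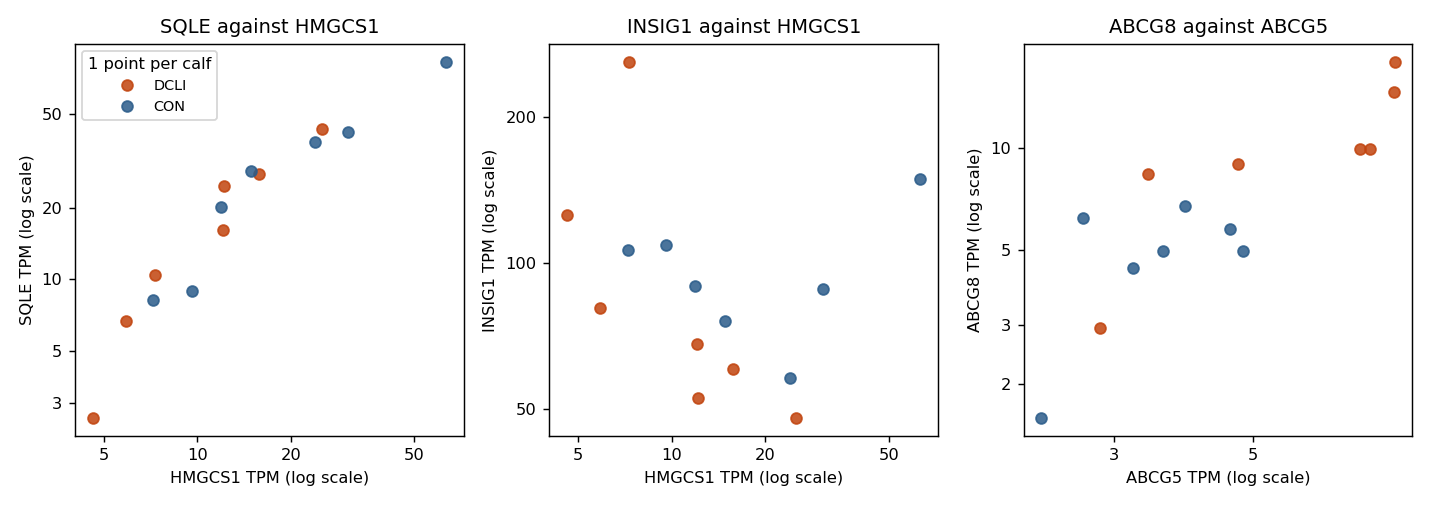
Level of 1 gene against another in TPM on log axes, 1 point per calf, DCLI and CON in different colors. SQLE lies along a line with HMGCS1 (r = 0.95). The correlation of INSIG1 with HMGCS1 is not called (r = -0.22 with DCLI calf 1 at 259.9 TPM, and -0.70 without CON calves 5 and 6). ABCG8 lies along ABCG5 (r = 0.85) with DCLI calves at the upper end.

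The table lists 84 transcripts of the 28 genes, of which 58 passed the filter, and 0 of them reached an adjusted p under 0.05 by limma over all 19045 transcripts tested (0 in all, 0.0%). At an unadjusted p under 0.05, 2 were higher and 4 lower in DCLI. The share of all transcripts at that level was not counted, so these numbers have no background beside them. Reads shared between transcripts of a gene were divided by estimation, so single transcripts are less certain than gene sums. In 20 of the 28 genes 1 transcript held at least 80% of the level. The lower ones were minor forms of FDPS and FDFT1, and the MSMO1 form next in level to the main one. The FDPS form with the lowest p, 6.8% of the gene, averaged 1.51 TPM in DCLI (SD 0.66) and 5.17 TPM in CON (SD 2.37, n = 7 each; log2 fold change -1.24 ± 0.25 SE, limma adjusted p 0.176). Its values ran from 0.62 to 2.59 TPM in DCLI and from 2.35 to 9.12 TPM in CON, so 1 or more calves of each group lay in the shared range. The main FDPS form, 65.0% of the gene, averaged 24.7 TPM in DCLI (SD 11.98) and 39.6 TPM in CON (SD 20.3, limma unadjusted p 0.0979). For MSMO1 the form next to the main one in level averaged 13.3 TPM in DCLI (SD 9.86) and 81.5 TPM in CON (SD 60.1; limma adjusted p 0.298), while the main form averaged 83.0 TPM in DCLI (SD 55.6) and 96.9 TPM in CON (SD 42.0). The minor FDFT1 form that was lower averaged 2.08 TPM in DCLI (SD 1.66) and 6.59 TPM in CON (SD 3.89, limma adjusted p 0.251). The main FDFT1 form, 81.6% of the gene, averaged 38.2 TPM in DCLI (SD 14.8) and 54.6 TPM in CON (SD 22.6, limma unadjusted p 0.0968). A minor CYP51A1 form, 9.3% of the gene, was listed at 0 in 6 DCLI and 2 CON libraries. It averaged 0.17 TPM in DCLI (SD 0.45) and 4.96 TPM in CON (SD 5.48). The main CYP51A1 form averaged 23.85 TPM in DCLI (SD 13.98) and 26.1 TPM in CON (SD 11.3). Its log2 fold change was -0.22, where that of the gene sum was -0.47. The higher transcripts were the single ABCG5 form and the main ABCG8 form, 73.0% of the gene, which averaged 7.68 TPM in DCLI (SD 3.49) and 3.53 TPM in CON (SD 1.39; limma adjusted p 0.294).

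Genes around the pathway were read from the same fit in 5 lists, and 0 genes of any of them passed an adjusted p of 0.05 by limma. Among 12 genes that process SREBP2 or degrade pathway proteins, 11 were higher and 1 lower in DCLI, with a median log2 fold change of 0.22, where 51.2% of all genes tested were lower and their median was -0.0052. Those at an unadjusted p under 0.05 included MBTPS1, the Golgi protease that first cuts SREBP2, at 36.6 TPM in DCLI (SD 4.70) and 31.1 TPM in CON (SD 4.25), and SEC23A, a coat protein of vesicles bound for the Golgi, at 25.8 TPM in DCLI (SD 3.38) and 21.1 TPM in CON (SD 3.08). Their fold changes were 0.23 and 0.28 (limma adjusted p 0.560 and 0.476). Of 11 genes on side branches of mevalonate metabolism 6 were higher and 5 lower, with a median of 0.085, and RABGGTB, a subunit of the enzyme that attaches isoprenoids to Rab proteins, had the lowest p (fold change 0.17, limma unadjusted p 0.162, adjusted p 0.672). Of 10 partners of the sterol enzymes and other SREBP2 targets 6 were higher, and POR, which passes electrons to CYP51A1 and SQLE, had 149 TPM in DCLI (SD 38.6) and 111.5 TPM in CON (SD 21.9; limma unadjusted p 0.04999, adjusted p 0.562). Of 13 genes of esterification, storage and transport 3 were higher and 10 lower, with a median of -0.091. Lowest in p was LIPA, the lysosomal lipase that frees cholesterol from its esters, at 48.0 TPM in DCLI (SD 16.6) and 63.6 TPM in CON (SD 21.9; fold change -0.39, limma adjusted p 0.616). Of 6 genes of the LXR group 4 were higher and 2 lower, and LPCAT3, a phospholipid-remodelling enzyme and known LXR target, had 23.0 TPM in DCLI (SD 3.76) and 18.7 TPM in CON (SD 2.67; fold change 0.28, limma unadjusted p 0.0249, adjusted p 0.488).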

How the data were processed

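The authors deposited TPM per RefSeq transcript for 14 libraries; SOAPnuke 1.5.6 cleaned the reads, per the labels' protocols, and RSEM 1.3.1 and DESeq2 1.4.5 are named in the submitters' processing notes. Neither an aligner nor a build is given in the sources used here. TPM was summed per Gene ID, and genes that reached 1 TPM in 7 or more libraries were compared on log2(TPM + 1), a scale that understates changes of low genes, with limma 3.58.1 in R 4.3.3 (trend, two-sided, no covariate) and Benjamini-Hochberg adjustment over 11905 genes. This step was tested on simulated data. Correlations used 100000 two-sided permutations. All matched genes of the list are named. From the other lists, genes with an unadjusted p under 0.05 and the lowest p of each are named, and from all genes the 10 most like HMGCS1; some genes that this rule takes are not reported here. The list and the tests were chosen with earlier results of these data known. Alternatives were pseudocounts of 0.1 and 5, no filter, median-ratio scaling, a minimum mean of 5 TPM, the most abundant transcript, a rank-sum test, quantile normalization, a replicate block, group means removed, and leaving out calves. Chosen after the data were seen were all pairs of genes, transcripts in place of genes and the count of lower synthesis genes. Figures were drawn with matplotlib 3.10.9.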

Additional observations from a re-analysis of the deposited data

Results flagged for a closer look

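In 4 of the 56 groups examined (28 genes in each of the DCLI and CON groups), 1 calf stood far from the others of its group, where chance flags about 1 group in 20. In DCLI these were INSIG1 in calf 1, at 259.92 TPM, and MYLIP in calf 2, at 11.08 TPM. In CON these were HMGCS1 at 63.26 TPM and DHCR7 at 43.12 TPM, both in calf 6.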

How the results depend on the processing

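The count of the 28 genes past an adjusted p of 0.05 by limma was 0 under every alternative run. Over all genes it was 1 with the replicate block and 0 to 12 with 1 calf left out, 12 without CON calf 7. DCLI and CON calves share replicate numbers, but same-numbered calves deviated together weakly (correlations from -0.18 to 0.45, the own number highest for 3 of 7), so the numbers were not taken as pairs. With 1 calf left out, 5 to 13 of the 28 genes were higher in DCLI (12 without DCLI calf 6 and CON calf 2 together), their median fold change ran from -0.24 to -0.043 and 11 to 18 of the 19 synthesis genes were lower; the extremes of 13, -0.043 and 11 were without DCLI calf 6. Correlations called ran from 16 to 19 of 31, and from 127 to 154 of 378 pairs. Signs turned for genes near 0. With 1 calf left out the fold change ran from -0.13 to 0.0929 for ACAT2, -0.15 to 0.0932 for MVK, -0.34 to 0.0195 for LSS, -0.17 to 0.0814 for TM7SF2, -0.32 to 0.0376 for NSDHL, -0.26 to 0.0974 for EBP, -0.0655 to 0.18 for SC5D, -0.13 to 0.0197 for INSIG2 and -0.16 to 0.13 for MYLIP. Without DCLI calf 6 and CON calf 2 together it was 0.0345 for ACAT2, 0.0798 for MVK, 0.05 for TM7SF2, 0.0163 for NSDHL, 0.0694 for EBP and 0.21 for MYLIP, and with quantile normalization -0.0669 for SC5D. Likewise r with HMGCS1 ran from -0.13 to 0.21 for PMVK, -0.12 to 0.18 for ABCG5, -0.26 to 0.17 for ABCG8 and -0.15 to 0.26 for ABCA1; r of TM7SF2 with LBR ran from -0.13 to 0.11 and of INSIG1 with INSIG2 from -0.23 to 0.27. It was -0.0007 for ABCG5 with a pseudocount of 5, 0.23 for ABCG8 with group means removed and 0.19 for INSIG1 with INSIG2 after median-ratio scaling. The causes were not tested. Calls of EBP, SC5D, SCAP and MYLIP with HMGCS1 depended on the setting: EBP missed with a pseudocount of 5 (adjusted permutation p 0.0719), SCAP missed after median-ratio scaling (r = -0.41) and with group means removed (-0.49), SC5D passed under those same settings (adjusted permutation p 0.0482 and 0.0397) and MYLIP passed after median-ratio scaling (r = -0.60, adjusted permutation p 0.0377). Depth is unknown, so it sets no limit here that could be given.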
